A study of Mus musculus with 37 samples.

Results

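In 2 single-cell libraries prepared from mouse hearts 7 days after myocardial infarction, 660 of 12807 barcodes were macrophages chosen by counts of 3 marker genes, Ccl24 and Slpi among them. A barcode was taken as a macrophage when Lyz2, Cd68, Csf1r and Adgre1 together made up 0.3% or more of its counts, the collagen genes Col1a1, Col1a2 and Col3a1 with Dcn stayed under 0.5%, and the neutrophil genes S100a8 and S100a9 under 2%. Among those macrophages, every barcode with 3 or more summed counts of the 3 marker genes was a member. The control library held 617 members among 5347 barcodes and the ENPP1CKO library 43 among 7460. The study asked how ENPP1, an enzyme on the cell surface that cleaves extracellular ATP to AMP, affects repair of the heart after infarction.

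Both libraries were made from nonmyocytes of injured hearts of C57BL/6 mice, 7 days after the infarction. The ENPP1CKO mice carried the tamoxifen-inducible Col1a2CreERT driver and 2 floxed ENPP1 alleles (ENPP1 fl/fl), and tamoxifen was given from 5 days before to 7 days after injury. Col1a2CreERT acts in fibroblasts and other Col1a2-expressing cells, so the deletion was not aimed at macrophages. The control library is labelled wild type. Age and the number of hearts behind each library are not given in the labels, and 1 library stood for each genotype, so the spread between animals could not be measured and no difference between genotypes was tested. All intervals below are exact 95% intervals and cover counting error only.

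Ccl24 encodes eotaxin-2, a chemokine that attracts eosinophils, and Slpi encodes a secreted inhibitor of neutrophil elastase and related proteases. Ltc4s encodes leukotriene C4 synthase, the enzyme that joins leukotriene A4 to glutathione, and Ccl6 encodes a chemokine of myeloid cells. Macrophages of the healing infarct descend from blood monocytes and from cells already resident in the tissue, and macrophages of the body cavities are a further kind with their own marker genes.

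On the GRCm38 build with the GENCODE M21 annotation, the 4 protein-coding genes lie on the minus strand at chr5:135569937-135573049 (Ccl24), chr2:164354070-164389095 (Slpi), chr11:50236461-50238616 (Ltc4s) and chr11:83587882-83593087 (Ccl6). Their Ensembl identifiers are ENSMUSG00000004814, ENSMUSG00000017002, ENSMUSG00000020377 and ENSMUSG00000018927 in the same order. Because Slpi, which chose the cells, and Ccl6, which did not, were both far more abundant in these macrophages than in the others, the 250 bases upstream of their RefSeq starts (GRCm38.p6, minus strand) are shown 5′ to 3′. The Slpi window is chr2:164356508-164356757, inside an intron of a longer annotated Slpi transcript, and the Ccl6 window is chr11:83593088-83593337. Capitals mark matches to TTC and GAA separated by 4 bases of any kind (a STAT6-type element), TTGCNNAA (a C/EBP-type element) or ACGTG (the core of a hypoxia element), each searched on both strands.
Slpi: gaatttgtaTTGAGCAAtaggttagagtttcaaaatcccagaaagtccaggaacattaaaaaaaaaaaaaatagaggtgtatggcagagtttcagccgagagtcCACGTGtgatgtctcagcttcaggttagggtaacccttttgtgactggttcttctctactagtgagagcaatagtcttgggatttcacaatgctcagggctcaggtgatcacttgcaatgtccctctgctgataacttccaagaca
Ccl6: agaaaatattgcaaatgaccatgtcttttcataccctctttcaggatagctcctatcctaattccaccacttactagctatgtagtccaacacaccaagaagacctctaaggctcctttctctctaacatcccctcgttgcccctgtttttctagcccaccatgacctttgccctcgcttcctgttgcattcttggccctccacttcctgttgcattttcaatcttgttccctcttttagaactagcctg
The Slpi window held a C/EBP-type match, TTGAGCAA, starting at -241 from the gene start on the minus strand of the printed sequence, and the hypoxia element core on both strands at -146 and -145, where the matches overlap each other as CACGTG. The Ccl6 window held none of these letters. Of 32817 RefSeq upstream windows of the same length, 5.85% held the STAT6-type element, 9.57% held TTGCNNAA and 16.6% held ACGTG, so these matches are a description of the windows and not evidence of binding. An entry for Ccl24 was not among the reference sequences used here.

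The members made up 25.1% of control macrophages (617 of 2459, exact Clopper-Pearson interval 23.4 to 26.9%) and 2.11% of ENPP1CKO macrophages (43 of 2042, 1.53 to 2.83%). Of all barcodes they were 11.5% (10.7 to 12.4%) in control and 0.576% (0.417 to 0.776%) in ENPP1CKO. The intervals of the libraries do not overlap, but they hold no spread between hearts. The other macrophages were 34.4% of control and 26.8% of ENPP1CKO barcodes. None of the 3 genes was counted in 62.0% of control macrophages (1525) and in 93.5% of ENPP1CKO macrophages (1910). At the far end, 12 or more counts were found in 10.3% of control macrophages (253) and 0.637% of ENPP1CKO macrophages (13).

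**Figure D1:**
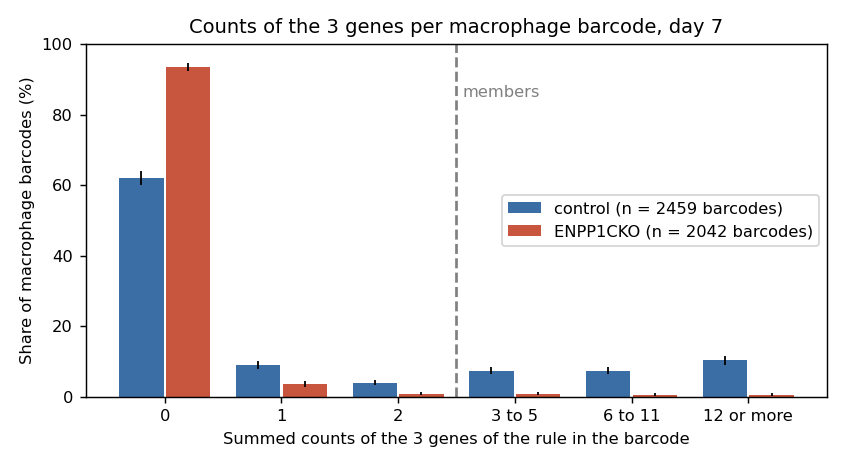
Percent of macrophages (vertical axis) by their summed counts of the 3 genes of the rule (horizontal axis) in each library, with exact binomial 95% limits. The control library exceeds the ENPP1CKO library in every class from 1 count upward, up to 10.3% against 0.637% at 12 or more.

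A fixed number of counts is easier to reach in a deeper barcode, so the shares were also taken with every macrophage thinned to 1000 counts. The members then made up 18.3% of control macrophages (422 of 2304) and 0.902% of ENPP1CKO macrophages (18 of 1995). Control members held fewer counts than the other control macrophages, with a median of 2235 (541 to 9994) against 3610, and a median of 1092 against 1328 detected genes. In ENPP1CKO the medians were 3052 counts (598 to 20635) in members against 3307, and 1295 against 1210 detected genes. The median mitochondrial share was 2.58% in control members against 2.03% in the others, and 3.27% against 2.54% in ENPP1CKO. Summed over barcodes, the members gave 1581259 counts in control and 170636 in ENPP1CKO, so that 1 count is a much larger part of an ENPP1CKO level. Of the 660 members, 4 were predicted doublets, all in control.

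RNA set free from lysed cells can place counts of a gene in cells that do not make it, so the 3 genes were also counted in fibroblast barcodes, which were deeper (median 5188 counts in control). There they summed to 42.8 CPM (counts scaled to a total of 1000000) and 0.766% of fibroblast barcodes reached 3 counts in control. In ENPP1CKO fibroblast barcodes the values were 1.44 CPM and 0.0605%. Endothelial barcodes gave 26.6 CPM in control and 2.66 CPM in ENPP1CKO. The other macrophages stayed at 58.9 CPM in control because the rule removed their high values. A further 153 of 2888 control barcodes outside the macrophage limits held 3 or more counts, 129 of them because macrophage genes were too low, and so did 29 of 5418 ENPP1CKO barcodes.

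As the rule requires, the 3 genes stood high in the members, and their values describe the choice. The median member held 9 summed counts of them in control (3 to 295) and 6 in ENPP1CKO (3 to 74). Ccl24 was counted in 51.9% of control and 67.4% of ENPP1CKO members, at 790 and 598 CPM. Slpi was counted in 55.3% and 41.9% of members, at 2249 CPM in control and 563 CPM in ENPP1CKO. Neither gene was counted in 142 control members (23.0%) and 7 ENPP1CKO members (16.3%), which entered by the remaining gene of the rule.

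Lyz2, Cd68, Csf1r and Adgre1 belong to the macrophage limits, so the label was checked on macrophage genes outside them. C1qa, a complement subunit made by macrophages, was at 2344 CPM in control members against 5041 CPM in the others and was counted in 80.7% against 90.6% of barcodes. Fcgr1, a receptor for antibodies, was at 130 against 219 CPM, and Mertk, a receptor for dying cells, at 70.8 against 44.2 CPM. Both are named only for this check of the label. In ENPP1CKO C1qa was at 2497 against 6292 CPM, Fcgr1 at 64.5 against 210 CPM and Mertk at 41.0 against 50.1 CPM. Of the genes of the limits, Cd68 was at 318 against 893 CPM in control, Adgre1, encoding F4/80, at 252 against 470 CPM and Csf1r, the receptor that macrophages need for survival, at 410 against 343 CPM. Macrophage genes were thus present in the members, most of them at lower levels than in the other macrophages. Of the 12 eosinophil, mast cell and basophil markers, 11 were at 0 in control members, with 1 count in all, and all 12 in ENPP1CKO members. The 9 mesothelial markers gave 3 counts in control members, with 6 at 0, and none in ENPP1CKO members. Neutrophil markers summed to 212 CPM in control members against 63.3 CPM in the others and to 346 against 37.7 CPM in ENPP1CKO, where 1 barcode held 86.4% of them, and Ly6g, Camp and Ngp, named only because they define neutrophils, were at 0 in the members of that library. The fibroblast markers summed to 1021 against 658 CPM in control and 844 against 696 CPM in ENPP1CKO. Endothelial markers summed to 26.6 against 35.1 CPM in control, T and NK cell markers to 32.9 against 14.9 CPM, B cell markers to 26.6 against 137 CPM, dendritic cell markers to 12.7 against 24.2 CPM, pericyte and smooth muscle markers to 10.1 against 6.97 CPM, and cardiomyocyte genes to 9.49 against 19.8 CPM. In ENPP1CKO members T and NK cell markers and pericyte and smooth muscle markers were all at 0. The part of these other cell types in the results was not tested.

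Enpp1 itself, the targeted gene, was read in fibroblast barcodes to check the labels. It stood at 125 CPM (118 to 133) in control and 27.2 CPM (24.5 to 30.0) in ENPP1CKO fibroblast barcodes. In the members Enpp1 gave 22 counts (13.9 CPM) in control and 5 counts (29.3 CPM, 9.51 to 68.4) in ENPP1CKO, with 13.4 and 10.6 CPM in the other macrophages. The lower level was seen in fibroblasts, the cells that the Cre driver marks, and the few counts in the members allow either direction.

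The next comparison set the members against the other macrophages of their own library. Because the members were chosen by 3 genes of the same cells, it is a description without a test, and the 3 genes and the 10 genes of the limits are left out of its counts. A gene was called when its CPM differed 2-fold or more with an interval of the ratio that excluded 1. Of 9960 genes with 20 or more counts in control macrophages, 1384 (13.9%) were higher and 411 (4.13%) lower in the members. In ENPP1CKO, 774 (8.2%) of 9438 genes were higher and 290 (3.07%) lower. The median log2 ratio over all genes was 0.23 in control and 0.36 in ENPP1CKO, where 1364 genes with 0 counts in a group are placed at a bound of 3 counts, as in the medians of lists that follow. With those genes kept at 0 counts the ENPP1CKO median was 0.03. Medians of lists that hold such genes change as well, from -0.13 to -0.51 for chemokines and from 0.90 to 0.62 for leukotriene and prostaglandin enzymes. Gene lists were described by the intervals of those genes that had 20 or more counts in the other macrophages alone, a limit chosen after the data were seen, so that no gene entered a list through the members. Under it 31.8% of all genes had an interval above 0 and 12.8% below in control, and 10.5% and 5.4% in ENPP1CKO. TMM scaling, which sets the bulk of genes to no change, moved every log2 ratio by -0.30 in control and -0.34 in ENPP1CKO and gave 805 higher and 783 lower genes in control and 451 and 581 in ENPP1CKO. Log2 ratios between 0 and the size of these shifts, such as those of Fcgr2b and Mrc1 in control members, change direction with the scaling.

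Ltc4s and Ccl6, named as markers of these cells but not used in the rule, stood far above the other macrophages in both libraries. Ltc4s was at 991 CPM (943 to 1041) in control members against 60.1 CPM (54.6 to 66.2) in the others, 16.5-fold higher, and at 1125 CPM (972 to 1296) against 54.3 CPM (48.9 to 60.0) in ENPP1CKO, 20.7-fold higher. Ccl6 was at 4254 CPM (4153 to 4357) against 527 CPM in control and at 4237 CPM (3934 to 4558) against 510 CPM in ENPP1CKO, 8.07-fold and 8.30-fold higher. In both libraries the members lay above the others with intervals that did not overlap. At 1000 counts per barcode, Ltc4s was detected in 51.7% of control members and 5.94% of the others, and in 62.5% against 4.69% in ENPP1CKO. Ccl6 was detected at that depth in 83.7% against 26.4% in control and 77.5% against 27.7% in ENPP1CKO. Barcodes under that depth were left out, 52 members and 107 others in control and 3 and 57 in ENPP1CKO. Without thinning, Ltc4s was counted in 64.2% of control members and 14.1% of the others, and in 72.1% and 12.8% in ENPP1CKO.

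**Figure D2:**
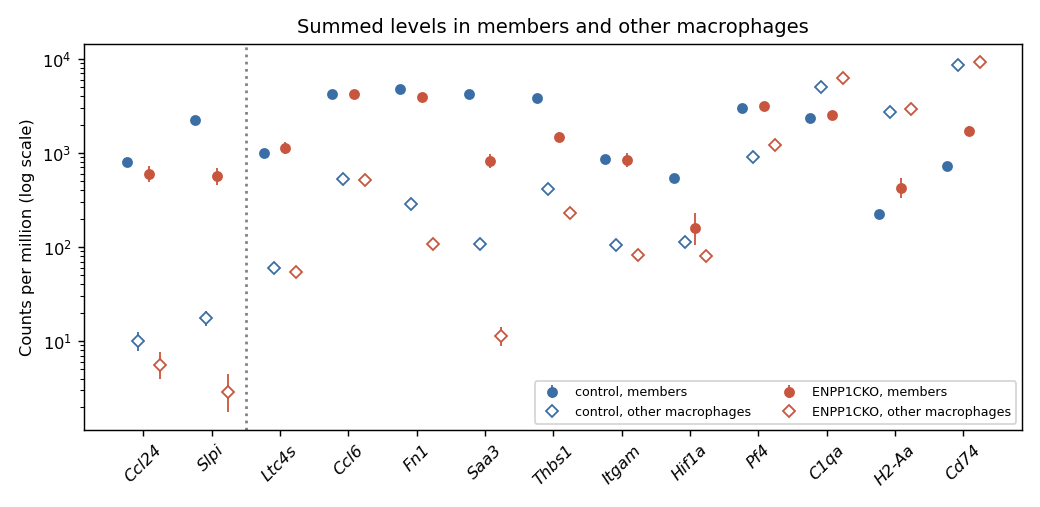
Levels in CPM on a log axis for named genes in members and in other macrophages of each library, with exact Poisson 95% limits, where Ccl24 and Slpi left of the dotted line belong to the rule. Ltc4s, Ccl6, Fn1 and Saa3 lie higher in members of both libraries, and C1qa and the MHC class II genes H2-Aa and Cd74 lie lower.

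Enzymes that make leukotrienes from arachidonic acid were the other genes around Ltc4s. Alox5, encoding the 5-lipoxygenase that starts the pathway, was at 36.7 CPM in control members against 3.27 CPM, a log2 ratio of 3.49 (2.77 to 4.25), and at 64.5 against 3.15 CPM in ENPP1CKO, 4.36 (3.16 to 5.46). Its helper protein Alox5ap differed less, at 1164 against 777 CPM in control and 885 against 682 CPM in ENPP1CKO. Ptgs1, the constitutive cyclooxygenase, was at 118 against 20.5 CPM in control and 99.6 against 24.6 CPM in ENPP1CKO. Pla2g7, which breaks down platelet-activating factor, was lower at 119 against 400 CPM in control. Of 11 measured leukotriene and prostaglandin enzymes, Ltc4s included, 7 had an interval above 0 in control (31.8% of all genes) and 2 an interval below 0 (12.8% of all genes), with a median log2 ratio of 1.00. In ENPP1CKO the counts were 5 of 12 above (10.5% of all genes) and 3 below (5.4% of all genes), with a median of 0.90.

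Among genes of arginine and polyamine use, 2 arginine transporters were higher in the members. Slc7a2, a carrier that brings arginine into macrophages, was at 112 CPM in control members against 6.11 CPM, and at 105 against 2.58 CPM in ENPP1CKO, with log2 ratios of 4.19 (3.71 to 4.71) and 5.36 (4.33 to 6.38). The related carrier Slc7a1 was at 31.6 against 6.97 CPM in control and 64.5 against 6.16 CPM in ENPP1CKO. Odc1, which turns ornithine into the polyamine putrescine, was at 96.1 against 99.1 CPM in control, a log2 ratio of -0.04 (-0.31 to 0.21). Of 14 measured genes of the list, 4 had an interval above 0 and 2 below in control, near the 31.8% and 12.8% of all genes, with a median of 0.20. In ENPP1CKO 3 of 13 were above and 2 below, against 10.5% and 5.4% of all genes, with a median of 0.39. Genes of alternative activation, the macrophage response to interleukin 4, were mixed in control (7 of 11 above, 3 below, median 0.80) and mostly without a call in ENPP1CKO (1 of 11 above, 1 below, median -0.42). Among them Mgl2, a lectin, had 3 counts in control members and 102 in the others. Without the immunoglobulin barcode described further on, ENPP1CKO log2 ratios were 1.97 (1.57 to 2.35) for Tgm2 and -1.18 (-1.99 to -0.48) for Mrc1.

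Genes of matrix and wound proteins were among the largest values. Fn1, encoding fibronectin, was at 4759 CPM (4652 to 4868) in control members against 286 CPM (274 to 299), and at 3897 CPM (3607 to 4205) against 107 CPM in ENPP1CKO, 16.6-fold and 36.4-fold higher. Fibroblast barcodes, a known source of fibronectin, held 2892 CPM of Fn1 in control and 2179 CPM in ENPP1CKO, as shares of counts below the members of the same library. They were deeper, with medians of 5188 against 2235 counts in control and 4028 against 3052 counts in ENPP1CKO. Fn1 gave 25357 counts in 1566 control fibroblast barcodes and 7525 counts in 617 control members. In ENPP1CKO it gave 31690 counts in 3307 fibroblast barcodes and 665 counts in 43 members. Thbs1, encoding thrombospondin 1, was at 3804 against 417 CPM in control and 1477 against 229 CPM in ENPP1CKO. F10, encoding coagulation factor X, was at 175 against 14.5 CPM in control and 93.8 against 4.29 CPM in ENPP1CKO, and the proteoglycan gene Vcan was at 111 against 11.2 CPM in control. Of 22 measured growth and wound factors, 9 had an interval above 0 (31.8% of all genes) and 7 below (12.8% of all genes) in control, with a median of 0.19. In ENPP1CKO 6 of 21 were above (10.5% of all genes) and 5 below (5.4% of all genes), with a median of 0.10.

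Saa3, Prtn3, Lrg1 and Hp were among the named genes with higher levels in the members of both libraries. Saa3, encoding an acute-phase protein of the serum amyloid A family, was at 4241 CPM (4140 to 4344) in control members against 108 CPM (101 to 116), and at 820 CPM (690 to 968) against 11.3 CPM (8.95 to 14.1) in ENPP1CKO. It was counted in 58.3% of control and 30.2% of ENPP1CKO members. Prtn3, a serine protease stored in granules of myeloid precursors, had log2 ratios of 5.18 (4.70 to 5.70) in control and 6.55 (5.19 to 8.07) in ENPP1CKO, from 318 and 16 counts in members. Lrg1, a secreted leucine-rich glycoprotein, had 4.75 (4.31 to 5.22) and 4.17 (3.00 to 5.25), and Hp, encoding haptoglobin, 3.62 (3.36 to 3.88) and 3.15 (2.16 to 4.03). Wfdc21, of the same domain family as Slpi, was at 108 against 1.85 CPM in control and 76.2 against 0.143 CPM in ENPP1CKO, the last from 1 count. Serpinb2, an inhibitor of plasminogen activators, was at 46.8 against 1.85 CPM in control. Of 9 measured protease inhibitors other than Slpi, 5 had an interval above 0 in control and 1 below (31.8% and 12.8% of all genes, median 0.36), and in ENPP1CKO 6 of 9 and 1 (10.5% and 5.4% of all genes, median 0.92).

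Surface receptors followed. Itgam, encoding the CD11b chain of complement receptor 3, was at 869 against 104 CPM in control and 838 against 82.3 CPM in ENPP1CKO, with log2 ratios of 3.06 (2.93 to 3.19) and 3.35 (3.07 to 3.61). Olr1, a receptor of oxidised lipoproteins, was at 218 against 14.6 CPM in control and 352 against 16.3 CPM in ENPP1CKO. Fcna, encoding the lectin ficolin A, was at 151 against 10.9 CPM and 293 against 5.15 CPM. The endothelin receptor gene Ednrb had log2 ratios of 3.74 and 4.07, the surface glycoprotein gene Cd24a 4.19 and 4.30, and Rai14, which encodes an actin-binding protein, 3.22 and 4.13. Scavenger receptors Msr1 and Marco were both higher, Msr1 at 373 against 112 CPM and Marco at 55.0 against 3.55 CPM in control. Phagocytosis receptors as a list had 11 of 17 intervals above 0 and 6 below in control, where 31.8% and 12.8% of all genes had one (median 0.38). In ENPP1CKO they had 4 and 5 of 16, where 10.5% and 5.4% of all genes had one (median -0.34). Ccr1, a receptor for Ccl6 and related chemokines, was at 190 against 36.5 CPM in control and 141 against 27.5 CPM in ENPP1CKO, while Cx3cr1, the fractalkine receptor, was lower at 46.8 against 157 CPM in control. Of 7 measured chemokine receptors, 3 had an interval above 0 and 2 below in control, and 1 and 3 in ENPP1CKO.

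Beside Ccl6, the chemokines Ccl9 and Pf4 were higher in the members of both libraries. Ccl9 was at 1575 against 378 CPM in control and 1295 against 425 CPM in ENPP1CKO. Pf4, platelet factor 4, was at 3029 against 906 CPM in control and 3153 against 1214 CPM in ENPP1CKO. Cxcl3, a neutrophil attractant, was at 127 against 18.3 CPM in control and 105 against 9.31 CPM in ENPP1CKO. Cxcl9, a chemokine induced by interferon gamma, was at 2 counts against 348 in control, a log2 ratio of -5.29 (-8.34 to -3.43), and had 0 counts in ENPP1CKO members, which allows a level of up to 21.6 CPM against 10.5 CPM in the others. Of 19 measured chemokines, 10 had an interval above 0 and 8 below in control (31.8% and 12.8% of all genes, median 0.52), and 7 and 7 of 20 in ENPP1CKO (10.5% and 5.4% of all genes). The ENPP1CKO median was -0.13, and 0.05 without the immunoglobulin barcode described further on.

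MHC class II genes, which present antigen to T cells, were lower in the members of both libraries. H2-Aa was at 223 CPM (200 to 247) in control members against 2743 CPM (2705 to 2782), 12.3-fold lower, and at 428 CPM (335 to 538) against 2943 CPM in ENPP1CKO, 6.88-fold lower. H2-Eb1 was 13.3-fold lower in control and 7.90-fold lower in ENPP1CKO, and Cd74, the invariant chain, 11.9-fold and 5.38-fold lower. The ENPP1CKO values depended on 1 barcode of mostly immunoglobulin counts, without which H2-Aa was 13.8-fold, H2-Eb1 18.7-fold and Cd74 16.0-fold lower. No gene of the list had an interval above 0 in either library. In control 7 of 8 had an interval below 0 (12.8% of all genes) and in ENPP1CKO 6 of 8 (5.4% of all genes), with and without that barcode. The levels are sums over barcodes, and the median over single barcodes of the summed 8 genes was 477 CPM in control members against 1000.2 CPM in the others, and 405 against 1095 CPM in ENPP1CKO. Of control members, 9 (1.46%) had 1% or more of their counts from H2-Aa, H2-Ab1, H2-Eb1 and Cd74, against 512 of the other macrophages (27.8%). Genes of lipid handling were split. Apoe, a lipid carrier, was at 12808 against 40927 CPM in control and 13297 against 44883 CPM in ENPP1CKO. Gpnmb, a lysosomal glycoprotein of lipid-laden macrophages, was at 40.5 against 451 CPM in control, whereas the fatty acid receptor Cd36 was at 300.4 against 109 CPM. Of 17 lipid-associated genes, 12 had an interval below 0 and 5 above in control (12.8% and 31.8% of all genes), with a median of -0.61, against 8 and 6 in ENPP1CKO, with a median of -0.35. Gpr34, Ramp1, Cadm1, Hpgd, Rapsn and Ighm were the other genes with the lowest control ratios, from -3.59 for Rapsn to -4.79 for Cadm1, each with 3 to 8 counts in the control members.

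Nearly all measured hypoxia and glycolysis genes had an interval above 0 in control. Of 23 measured genes, 22 had an interval above 0 (31.8% of all genes) and 1 below (12.8% of all genes), with a median of 0.81. In ENPP1CKO 13 of 23 were above (10.5% of all genes) and 1 below (5.4% of all genes), with a median of 0.99. Hif1a, the oxygen-regulated transcription factor subunit, was at 545 CPM (509 to 583) against 112 CPM in control and 158 CPM (104 to 230) against 79.6 CPM in ENPP1CKO. The lactate exporter Slc16a3 was at 159 against 47.8 CPM and 147 against 25.2 CPM. Hilpda, which limits lipid breakdown in hypoxia, was at 806 against 377 CPM and 451 against 294 CPM, and the glycolytic enzyme Gapdh at 950 against 541 CPM and 680 against 344 CPM. Under TMM scaling 21 of the 23 control ratios remained above 0, with a median of 0.51.

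**Figure D3:**
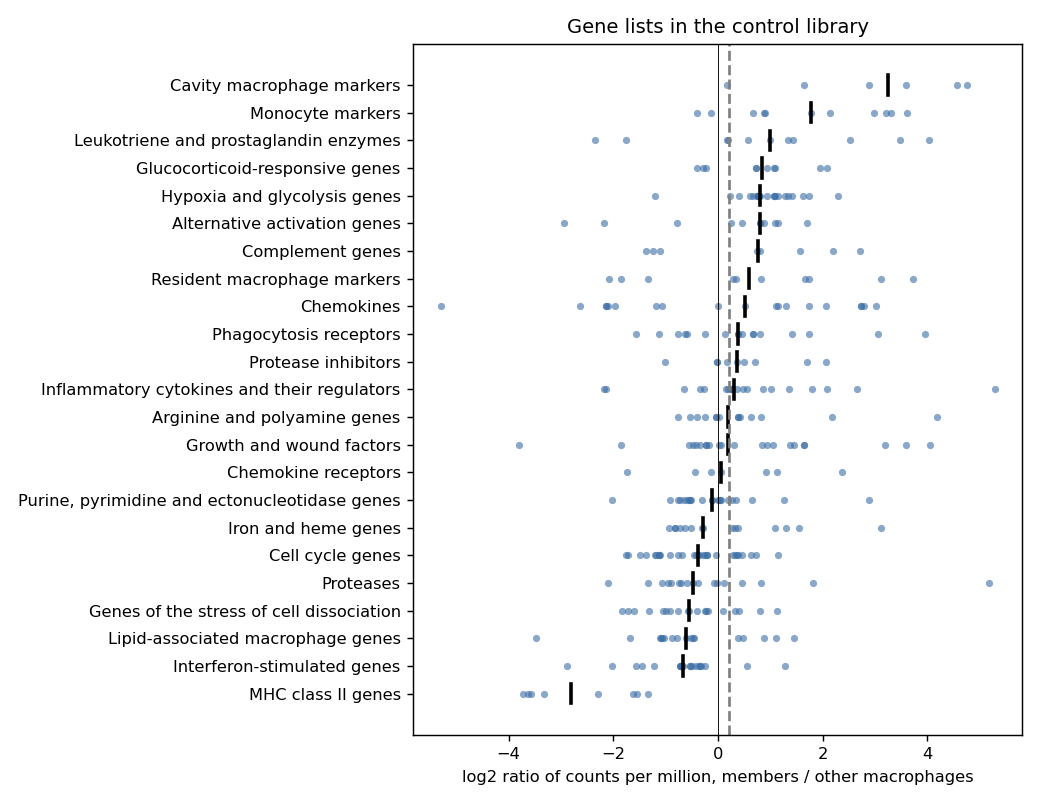
Log2 ratio of members to other macrophages for each measured gene of lists with 6 or more such genes (points) in the control library, with the list median (black bar) and the median of all genes under the same limit (dashed, 0.21). MHC class II genes lie farthest to the left with a median of -2.81 and cavity macrophage markers farthest to the right with 3.24.

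Markers of body cavity macrophages were higher in the members of both libraries. Their counts summed to 1278 CPM in control members against 236 CPM in the others and to 1078 against 139 CPM in ENPP1CKO. Of the 13 markers with 20 or more counts in control, 7 reached that number only with the counts of the members, so 6 were measured in the list. Of these, 5 had an interval above 0 and none below, against 31.8% and 12.8% of all genes. In ENPP1CKO all 5 measured markers had an interval above 0, against 10.5% of all genes. Ecm1, the most counted, was at 522 against 168 CPM in control and 305 against 95.5 CPM in ENPP1CKO, followed by Lrg1 and F10. Gata6, Alox15, Prg4 and Timd4 were chosen for mention after their values were seen. Prg4, encoding lubricin, was at 85.4 CPM (135 counts) against 1.85 CPM in control and 58.6 CPM (10 counts) against 0.429 CPM in ENPP1CKO. Gata6, the factor that defines peritoneal and pericardial macrophages, had 21 counts against 8 in control, 13.3 against 1.14 CPM, and 1 count in ENPP1CKO members. Alox15, a lipoxygenase, had 33 counts in control members and none in the others. Timd4, a marker of resident macrophages, was at 2 counts in control and 0 in ENPP1CKO members. The 10 measured resident markers were split, with 7 intervals above 0 and 3 below in control (median 0.59) and 5 above and 5 below in ENPP1CKO (median 0.35). A count of 2 or more different cavity markers was found in 50.4% of control members (311 of 617) and 8.09% of the other control macrophages (149 of 1842).

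Most monocyte markers were also higher in control members, with 9 of 11 intervals above 0 and 1 below (31.8% and 12.8% of all genes, median 1.79). In ENPP1CKO they were divided, with 5 of 10 above and 3 below (10.5% and 5.4% of all genes, median 1.06). Barcodes with 3 or more counts of Ly6c2 and Chil3, genes of blood monocytes, were 4.21% of control members and 4.13% of the other control macrophages. Cd44, the hyaluronan receptor, was at 1253 against 282 CPM in control and 938 against 204 CPM in ENPP1CKO. Ccr2, the receptor that takes monocytes out of the bone marrow, was at 121 against 134 CPM in control and had 1 count in ENPP1CKO members. Chil3, a chitinase-like protein of monocytes, was at 167 against 90.2 CPM in control. Of 21 genes induced by interferon, 16 had an interval below 0 and 2 above in control (12.8% and 31.8% of all genes). In ENPP1CKO 8 were below and 2 above, and without the immunoglobulin barcode 5 were below. The summed level of the list was nevertheless higher in members, at 5099 against 3807 CPM in control and 4946 against 3917 CPM in ENPP1CKO. Ifitm3, its most counted gene, was higher, at 2547 against 1043 CPM in control and 2403 against 1088 CPM in ENPP1CKO. Genes of the stress of cell dissociation had 13 of 19 intervals below 0 in both libraries. Fos, an immediate early gene, was at 517 against 1574 CPM in control and 475 against 2354 CPM in ENPP1CKO.

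In the remaining lists intervals above and below 0 both occurred, as they did for 31.8% and 12.8% of all genes in control and for 10.5% and 5.4% in ENPP1CKO. Complement genes had 4 of 8 intervals above 0 and 3 below in control (median 0.77) and 4 and 3 of 7 in ENPP1CKO (median 1.05). The complement gene C4b was at 258 against 39.4 CPM in control, while C1qa was lower at 2344 against 5041 CPM. Glucocorticoid-responsive genes had 7 of 10 above and 1 below in control and 2 of 11 and 1 in ENPP1CKO (median -0.03). Without the immunoglobulin barcode the ENPP1CKO numbers were 4 and 1 of 11 (median 0.33), where 1203 of 9428 genes were above and 412 below. In control the metallothionein Mt2 was at 649 against 168 CPM and the transcription factor Klf9 at 123 against 29.1 CPM. The iron and heme list had 5 of 15 above and 7 below in control and 5 of 14 and 2 in ENPP1CKO, with the heme-degrading enzyme Hmox1 at 703 against 286 CPM and the haptoglobin receptor Cd163 at 45.5 against 5.26 CPM. Proteases had 4 of 17 above and 10 below in control and 4 of 16 and 6 in ENPP1CKO, with Ctsb and Ctss, lysosomal cathepsins, at 2917 against 6104 CPM and 3875 against 7470 CPM. Purine, pyrimidine and ectonucleotidase genes had 3 of 22 above and 8 below in control and 3 of 21 and 4 in ENPP1CKO. Without the immunoglobulin barcode the ENPP1CKO numbers were 4 above and 1 below of 21. Nt5e, encoding CD73, the enzyme that turns AMP into adenosine, was the largest difference named from that list, at 94.9 CPM (80.3 to 111) against 12.8 CPM (10.3 to 15.7) in control and 46.9 CPM (20.2 to 92.4, 8 counts) in ENPP1CKO members. Inflammatory cytokines and their regulators had 13 of 20 above and 4 below in control but 3 of 20 and 5 in ENPP1CKO (median -0.37), with Il6 at 35.4 against 2.56 CPM and Il1b lower at 716 against 1123 CPM.

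Levels of some genes were ordered by the summed counts of the 3 genes, which chose the cells. The class of a barcode depends on its depth as well, and the classes differed in it. Across control macrophages with 0, 1 to 2, 3 to 5, 6 to 11 and 12 or more counts, the median depth was 3706, 2852, 1459, 1937 and 2830 counts. Ltc4s was at 40.7, 176, 608, 868 and 1244 CPM in these classes. Fn1 went from 176 through 943, 3062 and 4633 to 5665 CPM, and Saa3 from 65.9 through 361, 2259 and 3201 to 5758 CPM. The 4 MHC class II genes summed to 17010, 8679, 2951, 979.5 and 742 CPM in the same classes. In ENPP1CKO, Ltc4s was at 48.8, 166, 511, 1810 and 1601 CPM, where the last 3 classes held 19, 11 and 13 barcodes. Hif1a did not follow that order above the threshold, with 98.8, 189, 528, 604 and 524 CPM in control, nor did the monocyte markers, which summed to 719, 1601, 2795, 2471 and 2533 CPM. Just outside the threshold, the 97 control macrophages with 2 counts had Ltc4s at 420 CPM, Fn1 at 1784 CPM and the MHC class II genes at 8039 CPM. Just inside it, the 77 with 3 counts had 613, 2721 and 1949 CPM. Median depth was 1598 counts just outside and 1459 counts just inside.

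Members with and without a count of Slpi differed in further genes. Slpi belongs to the rule, so members without it had to enter by other genes of the rule, and the split is a description without a test. In control, 341 members had a count and 276 had none, with a median of 2343 and 2169.5 counts per barcode. Saa3 was at 6145 CPM (5982 to 6311) with Slpi and 1882 CPM (1782 to 1986) without it. Prg4 was at 147 CPM (123 to 175) with Slpi and 8.50 CPM (3.12 to 18.5) without it, and the cavity macrophage markers summed to 1707 and 746 CPM. Summed over all of them, control members with Slpi thus had more Saa3, Prg4 and cavity macrophage RNA. The 9 that entered by Slpi alone did not, with Saa3 at 736 CPM (461 to 1114), no count of Prg4 (up to 123 CPM) and cavity markers at 401 CPM (207 to 701). Pf4 had the opposite order, at 2475 CPM with Slpi and 3714 CPM without it. Ccl6 had that order too, at 3782 CPM (3654 to 3913) with Slpi and 4840 CPM (4679 to 5005) without it. Ltc4s was at 1033 and 939 CPM, with intervals that overlapped. In ENPP1CKO 18 members had a count of Slpi and 25 had none, and 1 of the 18 was a barcode of mostly immunoglobulin counts described further on. Without that barcode, Saa3 was at 1637 CPM (1332 to 1991) in the 17 members with Slpi, against 1224 CPM with it and 450 CPM (321 to 613) in the members without Slpi. Prg4 had 10 counts in members with Slpi and 0 counts in the others. Pf4 was at 3142 CPM (2714 to 3620) in the 17 members, 2349 CPM with the immunoglobulin barcode, and 3892 CPM (3493 to 4324) without Slpi, so its intervals overlapped once that barcode was left out. Ccl6 was at 2864 CPM (2456 to 3321) in the 17 members and 6040 CPM (5540 to 6574) without Slpi. Ltc4s was at 1015 CPM (778 to 1301) in the 17 members, 759 CPM with the immunoglobulin barcode, and 1462 CPM (1222 to 1736) without Slpi, the opposite order to control, with intervals that also overlapped once that barcode was left out.

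**Figure D4:**
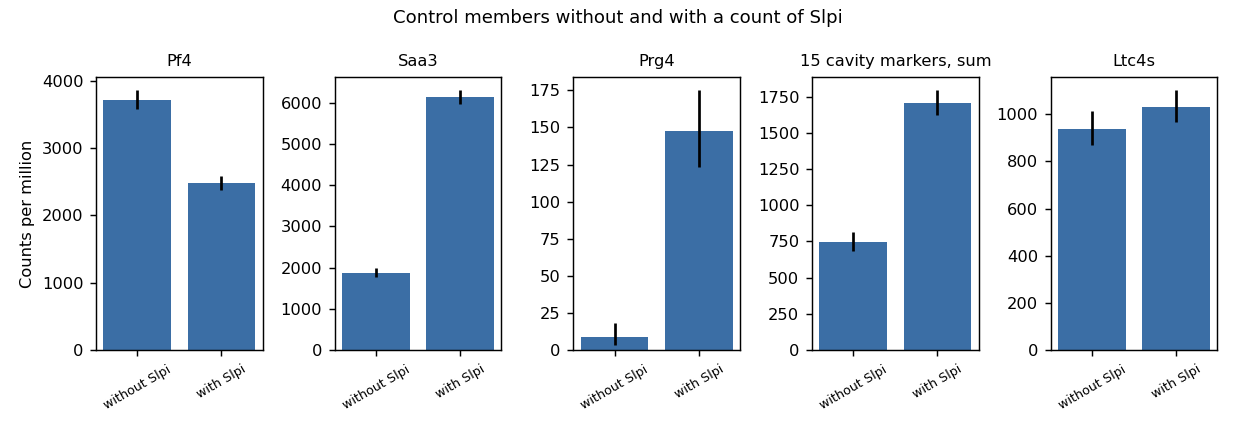
Levels in CPM of 4 further genes and of the summed cavity macrophage markers in control members without and with a count of Slpi, with exact Poisson 95% limits. Summed over members, Saa3, Prg4 and the cavity markers are higher where Slpi was counted, and Pf4 is lower. Slpi belongs to the rule that chose the cells, so the split is a description.

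The 43 ENPP1CKO members were set against the 617 control members to see how far the few that were found differed between genotypes. Of 6896 genes with 20 or more counts in both libraries together, 118 (1.71%) were called higher and 206 (2.99%) lower in ENPP1CKO members. In the other macrophages 164 of 10708 genes (1.53%) were higher and 170 (1.59%) lower. The median log2 ratio of all genes was -0.15 in the members, or -0.20 with genes at 0 counts kept there, and -0.06 in the others. Several genes that set the members apart had intervals that included 0 between the libraries. The log2 ratio was 0.18 (-0.04 to 0.40) for Ltc4s, -0.01 (-0.12 to 0.11) for Ccl6, -0.05 (-0.31 to 0.20) for Itgam, 0.06 (-0.07 to 0.19) for Pf4 and -0.09 (-0.87 to 0.62) for Slc7a2. The immunoglobulin barcode holds 12.1% of the ENPP1CKO member counts and lowers the level of genes of which it has few counts. Without it the log2 ratio was 0.37 (0.15 to 0.59) for Ltc4s, 0.16 (0.04 to 0.27) for Ccl6 and 0.24 (0.11 to 0.37) for Pf4, intervals that exclude 0.

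Saa3 and monocyte genes were lower in ENPP1CKO members. Saa3 had a log2 ratio of -2.37 (-2.62 to -2.13), 5.17-fold lower. It was also lower in the other macrophages, at -3.26 (-3.61 to -2.92), and in fibroblast barcodes, at 12.4 CPM in ENPP1CKO against 333 CPM in control. Of fibroblast barcodes 18.4% had a count of Saa3 in control and 0.726% in ENPP1CKO, and 1.47% and 0.121% had 3 or more. Most of the 2919 control counts and of the 180 ENPP1CKO counts lay in those 23 and 4 barcodes. The fibroblast levels thus rest on few barcodes, and the source of these counts was not tested. Monocyte markers had 8 of 11 intervals below 0 (6.05% of all genes) and none above (3.58% of all genes), with a median of -1.96, and 10 of 11 below 0 and none above in the other macrophages (15% and 8.77% of all genes there), with a median of -1.11. Among them Plac8 had 2 counts in ENPP1CKO members, 11.7 against 199 CPM, Ccr2 1 count, 5.86 against 121 CPM, Ly6c2 3 counts and Chil3 4 counts. All 3 counts of Ly6c2 lay in the immunoglobulin barcode, without which it had 0 counts. Hp was lower at 76.2 against 297 CPM. A further 3 genes rested on few counts in ENPP1CKO members, Smox with 1, Retreg1 with 3 and Cdk9 with 3. Thbs1 was lower at 1477 CPM against 3804 CPM, -1.36 (-1.55 to -1.18), beside -0.87 in the other macrophages. Fn1 was at -0.29 (-0.40 to -0.17) in the members, or -0.10 (-0.22 to 0.01) without the immunoglobulin barcode, and at -1.42 (-1.54 to -1.30) in the others. Hif1a was lower at 158 against 545 CPM, -1.78 (-2.39 to -1.23), beside -0.49 in the others. Inflammatory cytokines and their regulators had 10 of 19 intervals below 0 and none above in the members, with a median of -0.67, and 4 of 21 below and 8 above in the other macrophages, with a median of 0.09.

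Genes called higher were fewer than genes called lower, but without the immunoglobulin barcode the numbers were 139 and 148 and with barcodes thinned to 1000 counts 81 and 20. Lyve1, a hyaluronan receptor of resident macrophages, was at 422 CPM (330 to 531) in ENPP1CKO members against 75.3 CPM (62.3 to 90.1) in control members. Its 72 ENPP1CKO counts came from 14 members, with at most 15 in one. In the other macrophages Lyve1 was at 2.29 and 1.99 CPM. Lpl, lipoprotein lipase, was at 510 against 122 CPM, with counts in 23 of 43 members, Fabp7, a fatty acid binding protein, at 164 against 58.2 CPM in 10 members, and Fcna at 293 against 151 CPM in 22 members. Tsc22d3, a glucocorticoid-induced gene, was at 269.6 against 102 CPM. Marco was at 141 against 55.0 CPM, but its 24 counts came from 3 members. Cell cycle genes, of which 11 of 29 had an interval below 0 (12.8% of all genes) and none above in control members against other macrophages, had 11 of 29 above (10.5% of all genes) and none below in the same comparison in ENPP1CKO. Between the libraries 9 of 12 intervals were above 0 (3.58% of all genes) and none below, with a median of 1.66. In ENPP1CKO 3 members held 64.4% of their 233 counts, whereas in control the highest 3 members held 20.3% of 778. Mki67, a proliferation marker, had 6 counts in ENPP1CKO members and 7 in control members, and Stmn1, a microtubule regulator of dividing cells, was at 229 against 81.6 CPM with counts in 10 members.

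The highest ratios of all came from 1 barcode. A single ENPP1CKO member held 20635 counts, of which 11757 (57.0%) were immunoglobulin counts of Igkc, Igha and Jchain, and 12.1% of the counts of all ENPP1CKO members. It had 4 counts of Slpi, none of Ccl24, and 207 of Cd74, and was not a predicted doublet. Without this barcode Igkc stood at 17 counts in the 42 remaining members, and Lyve1, Lpl and Saa3 had log2 ratios of 2.67, 2.20 and -2.18. Cd74, which was higher in ENPP1CKO members at 1.26 (1.07 to 1.44), then stood at -0.31 (-0.65 to 0.00), and H2-Aa went from 0.94 to -0.06. The MHC class II genes had 3 of 6 intervals above 0 (3.58% of all genes) and none below, with a median of 0.57. Without the barcode none was above and 1 was below, H2-Ab1 at -0.94 (-1.64 to -0.31), with a median of -0.44. Without it 148 genes were called lower, 135 of them in common with the full set, and 139 higher, 96 in common.

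**Figure D5:**
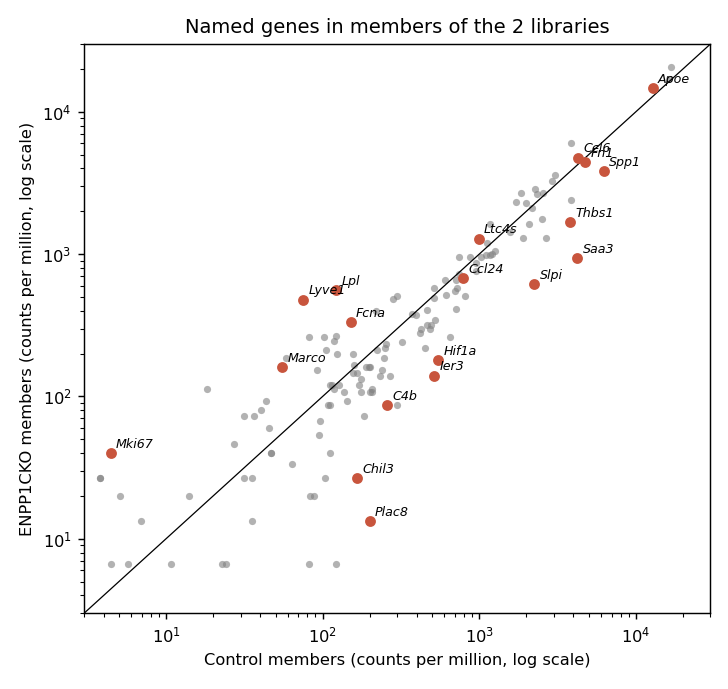
Level of each named gene with a count in both groups, in CPM on log axes, in control members (horizontal) and in ENPP1CKO members without the immunoglobulin barcode (vertical, 42 barcodes). The diagonal marks equal levels. Saa3 lies below it and Lyve1 and Lpl above it, while Ltc4s and Ccl6 lie near it.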

How the data were processed

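The 2 single-cell libraries, 1 per genotype, were read from the tables that the authors deposited, which hold whole-number counts for each of 31053 genes in each barcode, with no normalization. The submitters' processing notes name Cell Ranger without a version, STAR 2.5.3a and the builds mm10 and rn6, without saying which step each served. Of the 31053 gene identifiers 30934 matched a symbol, and 56 genes shared one with another gene. Bulk tables of the series were not used here, and 0 columns of the tables used were left out.

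Counts were summed over the barcodes of a group and divided by the group total to give CPM. Levels carry exact Poisson intervals, shares exact Clopper-Pearson intervals and ratios exact conditional binomial intervals. Genes entered a comparison with 20 counts or more in both groups together. Where a group had 0 counts and a ratio was needed as a bound, 3 counts were used. For calls, any group under 3 counts was set to 3 counts, while printed ratios from 1 or 2 counts use those counts. With 1 library per genotype no test was possible. One gene of the rule, and the results that need it, are not reported here. The members and lists were chosen with earlier results of these data known. Names in the text follow a rule of 3 parts. It took the given markers and Enpp1, then the 15 highest and 10 lowest ratios of members to other macrophages in control and the 8 highest and 8 lowest between libraries, and last the most counted or most different genes of the 20 function and 13 cell type lists, with every exception stated. Doublets were predicted with Scrublet in scanpy 1.11.5 and kept, and left out in an alternative. The libraries share 68 barcodes, of which 9 were control members and 0 ENPP1CKO members. TMM factors came from edgeR 4.0.16 in R 4.3.3. Other steps used Python 3.11.15, numpy 2.4.6, scipy 1.17.1 and pandas 2.3.3, and the scripts were tested on simulated data. Alternatives changed the rule, filters, depth and scaling. Leaving out the immunoglobulin barcode, requiring 20 counts in the other macrophages alone for the gene lists and weighting barcodes equally were chosen after seeing the data.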

Additional observations from a re-analysis of the deposited data

Results flagged for a closer look

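For 11 named genes the members stood on opposite sides of the other macrophages in the 2 libraries, each with an interval that excluded 0. The difference between the libraries was not tested, because each genotype had 1 library. In each pair that follows, the log2 ratio of members to other macrophages is given for ENPP1CKO first and for control second.

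Genes higher in ENPP1CKO members and lower in control members were Lpl at 1.98 and -0.78 and Stmn1 at 0.70 and -0.76. Genes lower in ENPP1CKO members and higher in control members included the monocyte gene Plac8 at -2.01 and 0.68, Retreg1 at -1.98 and 0.57 and Smox at -3.04 and 0.59, for which the ENPP1CKO members held 2, 3 and 1 counts. The mannose receptor gene Mrc1 stood at -1.37 and 0.26 and the Fc receptor gene Fcgr2b at -0.999 and 0.14, and both control values change direction under TMM scaling. The chemokine gene Cxcl2 was at -0.69 and 0.52, the lectin gene Clec4n at -0.53 and 0.45, the early response gene Ier3 at -1.26 and 1.13, and the metallothionein gene Mt1 at -0.33 and 1.08. With 2 counts of the 3 genes as the limit, Plac8 in ENPP1CKO turned to 0.68. Without the immunoglobulin barcode the ENPP1CKO interval included 0 for Plac8 at -1.82 (-4.87 to 0.04) and Clec4n at -0.34 (-0.80 to 0.08).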

How the results depend on the processing

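No paired analysis was possible because each genotype had 1 library, and for the same reason no library could be left out. The share of macrophages that were members was lower in ENPP1CKO under every alternative run. It was 29.0% in control and 2.89% in ENPP1CKO with 2 counts of the 3 genes as the limit, 17.6% and 1.18% with 6 counts, and 18.3% and 0.902% when thinned to 1000 counts. In control it was 27.6% with the limit at 0.1% of counts, 22.7% with Slpi not used and 22.5% with macrophage genes at 0.6%. Genes called lower in ENPP1CKO members than in control members numbered 110 with 6 counts as the limit, 125 at 0.1% of counts, 135 with Slpi not used and 20 when thinned, of which 62, 85, 105 and 6 were among the 206 reported. Of 81 called higher when thinned, 6 were among the 118 reported. Genes called higher between the libraries numbered 21 with 100 counts per gene and 206 with no filter. Against the other macrophages, genes called higher numbered 684 in control and 465 in ENPP1CKO with 100 counts per gene, and 383 in ENPP1CKO when thinned, where 86 were lower. TMM scaling gave 805 higher and 783 lower genes in control and 451 and 581 in ENPP1CKO.

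The log2 ratio of Plac8 in ENPP1CKO members to other macrophages turned to 0.68 with 2 counts as the limit. Igha, Igkc and Jchain turned to -3.21, -3.23 and -3.25 with 6 counts, to -3.25, -3.28 and -3.70 at 0.1% of counts and to -3.39, -3.42 and -3.26 with Slpi not used, settings under which the immunoglobulin barcode counts among the other macrophages, and Igha to -0.48 when thinned. Cd74 in ENPP1CKO against control members turned to -0.12 with Slpi not used and -0.31 without the immunoglobulin barcode. The cause of the other changes was not tested. Of 2200 values of named genes in control, 1771 stayed within the interval of the reported value, 429 moved outside it and 0 called values changed sign, while the counts were 1594, 334 and 11 of 1939 in ENPP1CKO and 1580, 247 and 2 of 1829 between libraries. The 43 ENPP1CKO members, with 170636 counts, limit every value of that group.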

Other observations

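Genes of resident and cavity macrophages outside the lists' most counted members were looked at after their values were seen. Vsig4, a complement receptor of resident macrophages, was at 46.8 CPM in control members against 3.55 CPM in the other macrophages and at 70.3 against 4.58 CPM in ENPP1CKO. Cd5l, a secreted protein of tissue macrophages, was at 25.9 against 23.0 CPM in control but at 311 CPM in ENPP1CKO members, where 23 of its 53 counts came from 1 member, against 91 counts over the 1999 other macrophages. Igf1, a growth factor, was lower in members, at 123 against 441 CPM in control and 141 against 424 CPM in ENPP1CKO. Vegfa, which drives vessel growth, was at 278 against 88.7 CPM in control and 82.0 against 76.3 CPM in ENPP1CKO. Ppbp, a platelet chemokine, had 32 counts in ENPP1CKO members, of which 30 came from 1 barcode, and 15 counts in control members.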
